A study of Mus musculus with 8 samples.

Results

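The genes described here encode the subunits of the receptors for glutamate and GABA. They were taken by symbol alone: Gria, Grik, Grin, Grid and Grm genes with a number, Gabr genes, and Gabbr1 and Gabbr2. The rule found 47 of the 31058 genes and reporter elements in the count matrix, with 7 subunits of NMDA receptors, 4 of AMPA receptors, 5 of kainate receptors, 2 delta subunits, 8 metabotropic glutamate receptors, 19 subunits of GABAA receptors and 2 of GABAB receptors. No receptor gene was used to name a cell. The tests below cover the 40 members with at least 30 UMIs over all sums, and Gabra6, Gabrp, Gabrq, Gabrr1, Gabrr3, Grm6 and Grm8 were too low to test.

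The cells came from the dentate gyrus, the part of the hippocampus in which neurons are made throughout life, of Ki67TD-NES mice of both sexes. Every animal carried 3 elements, also those at the ages used as a reference: a Nestin-GFP transgene, which drives green fluorescence from Nestin sequences and is active in stem cells but also in other glia and vessels, a Ki67-creERT2 allele, which expresses a tamoxifen-dependent recombinase in cells in the cell cycle, and a reporter that makes tdTomato once recombined. All mice were given tamoxifen by gavage for 6 days (100 mg/kg) and killed on the eighth day, and GFP+ cells with and without tdTomato were sorted, and no untreated or unsorted group was analysed here. Pools of 2 to 5 mice gave 7 experiments, with 1 at 1 month (1mo-1), 3 at 2 months (2mo-1 to 2mo-3) and 3 at 6–8 months (6mo-1 to 6mo-3, labelled 6 months), in 8 droplet libraries of 4861883 to 43826338 UMIs (unique molecular identifiers, each counting 1 captured transcript). The 2 libraries of 2mo-1 were sorted separately and summed here, and the label of one of them also names double-negative cells. The 2-month libraries used Version 2 of the chemistry and all others Version 3, so age and chemistry cannot be told apart between 2 months and the other ages.

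Of 24376 barcodes that passed the filters, 18487 were given a cell type from marker genes. The neural lineage held 1512 quiescent neural stem cells (NSCs), 167 cycling NSCs, 756 cycling and 613 non-cycling intermediate progenitors (IPCs), 313 early neuroblasts and 961 late neuroblasts. The oligodendrocyte lineage held 4121 oligodendrocyte precursor cells (OPCs), 140 dividing OPCs, 276 committed and newly formed oligodendrocytes and 6125 myelinating oligodendrocytes, and 1590 astrocytes were set beside the NSCs. Quiescent NSCs and astrocytes each had UMIs of 13 of 13 NSC markers and 8 of 8 astrocyte markers. The NSC list summed to 8342 CPM in quiescent NSCs and 4042 CPM in astrocytes, and the astrocyte list to 366 CPM and 2787 CPM, but also to 862 CPM in OPCs and 2011 CPM in committed oligodendrocytes. UMIs were summed per cell type and experiment where at least 20 cells were present, and levels are CPM, the counts scaled to the same total UMIs in every sum. Since transcripts were counted at their 3′ ends, each gene is compared with itself across cell types, and shares of a receptor class are shares of UMIs with no correction for length. In these sums, fewer cells with a transcript and less of it per cell cannot be told apart. Cells of 1 experiment shared a pool of animals and a library, so the experiment was a block when cell types were compared. The edgeR tests of cell types came from 1 joint fit of the 62 sums of all 11 types. Their p-values therefore rest on a spread pooled over every type, also those outside a comparison. The 62 sums came from 7 experiments, so sums of 1 experiment are not independent pools of animals. Tests of age and of subunit shares used the types named in them, with 7 or fewer experiments.

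Glutamate opens AMPA, kainate and NMDA receptors, which are channels for cations assembled from subunits of their own class, and it also acts on metabotropic receptors coupled to G proteins. GABA opens GABAA receptors, chloride channels built mostly from alpha, beta and gamma subunits, and activates GABAB receptors, which need a GABBR1 and a GABBR2 subunit. In the dentate gyrus GABA acts on stem cells and newborn neurons before glutamate synapses form, and OPCs receive synapses from neurons.

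Promoters of members were read from RefSeq (GRCm38.p6), as 250 bases before and 50 after the start, for the 32 of 47 members that matched. Of those 32, the E-box CAGATG, the form that NEUROD and NEUROG factors prefer, was found in 3 promoters and in 17.2% of all 32851 promoters. The motif ACAANG, with any base at N and so looser than a Sox site, was in 11 members and 41.2% of all. The E-box CAGCTG was in 1 member and 16.3% of all. TTCAGCACC, the first part of the site of REST, a repressor of neuronal genes, was in 1 member and 0.371% of all. Both strands were searched, and the shares of members and of all promoters are descriptions only. The promoters of 3 members are printed as examples, and no link between promoter and level was tested. Gria2 was the member with the most UMIs, Gria4 was a subunit of OPCs, and Grm2 had the REST-type letters and was found in neuroblasts. Each lies on the minus strand and is written 5′ to 3′, and capitals mark the motif: ACAANG on the other strand in Gria4, TTCAGCACC in Grm2, and none of the 4 motifs in Gria2 (chr3:80802786-80803085 for Gria2, chr9:4796185-4796484 for Gria4 and chr9:106656060-106656359 for Grm2).
Gria2: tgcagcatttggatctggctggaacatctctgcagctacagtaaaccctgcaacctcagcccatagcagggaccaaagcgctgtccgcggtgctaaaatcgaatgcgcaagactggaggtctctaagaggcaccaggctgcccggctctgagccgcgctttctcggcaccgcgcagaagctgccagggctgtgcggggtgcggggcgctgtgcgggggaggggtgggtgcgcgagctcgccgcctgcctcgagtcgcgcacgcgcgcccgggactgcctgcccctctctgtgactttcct
Gria4: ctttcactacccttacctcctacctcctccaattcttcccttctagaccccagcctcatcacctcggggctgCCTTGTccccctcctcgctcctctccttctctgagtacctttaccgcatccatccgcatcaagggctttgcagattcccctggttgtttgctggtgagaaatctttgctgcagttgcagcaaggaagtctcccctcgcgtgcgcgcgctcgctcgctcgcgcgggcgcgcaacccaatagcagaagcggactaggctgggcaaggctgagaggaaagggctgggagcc
Grm2: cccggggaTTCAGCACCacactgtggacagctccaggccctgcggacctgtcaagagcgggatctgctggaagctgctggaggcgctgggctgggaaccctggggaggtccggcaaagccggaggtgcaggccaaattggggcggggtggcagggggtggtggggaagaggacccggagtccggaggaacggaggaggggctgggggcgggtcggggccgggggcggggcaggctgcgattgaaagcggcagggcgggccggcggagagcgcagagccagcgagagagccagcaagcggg

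Across the 11 cell types of these lineages, 44 members had a UMI. Gabra6, Gabrp and Grm6 had none in any cell, and 10 more were below 100 UMIs in the gated lineages, among them Gabrd (65), Gabre (43), Gabrq (15), Gabrr1 (2), Gabrr3 (1), Grin3b (48), Grm2 (39), Grm4 (85) and Grm8 (21). Of the 34 members above that limit, 16 had their highest mean level in OPCs (7) or dividing OPCs (9), 9 in late (7) or early (2) neuroblasts, 4 in astrocytes, 2 in myelinating oligodendrocytes, and 1 each in quiescent NSCs (Gabrg3), cycling NSCs (Gabra4) and committed oligodendrocytes (Gria2). The order of neighbours was often within their spread: Gria3 was 211 ± 43.7 CPM (SD, n = 3) in dividing OPCs and 187 ± 51.9 CPM (SD, n = 7) in OPCs, and Grin2b was 196 ± 52.0 CPM (SD, n = 7) in late and 176 ± 83.0 CPM (SD, n = 4) in early neuroblasts.

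**Figure D1:**
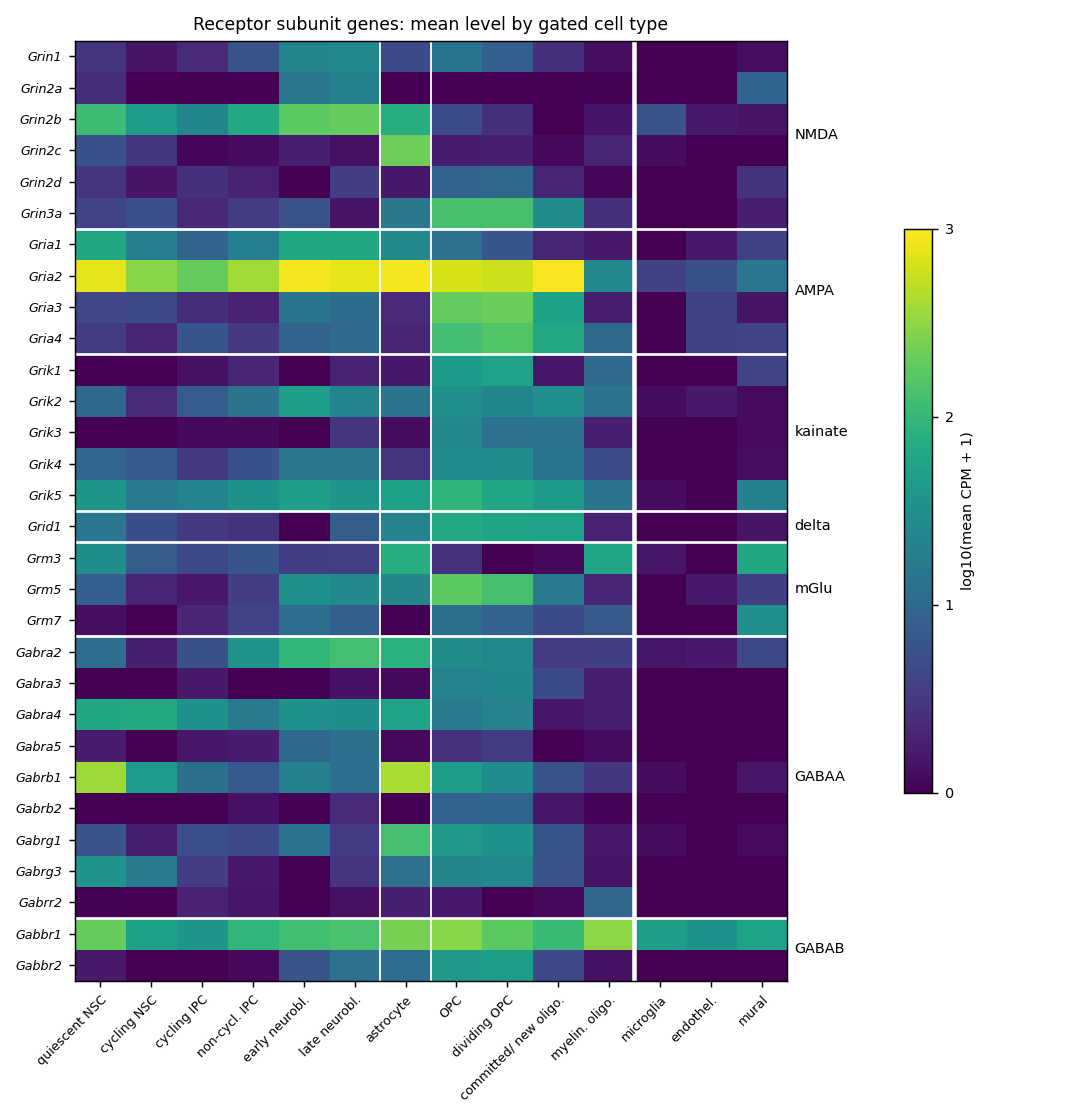
Mean level of 30 receptor genes (rows, by receptor class) in 14 cell types (columns), as log10(mean CPM + 1) over the experiments with at least 20 cells. Colours can be compared along a row only; Grin2c is highest in astrocytes (215 CPM), while Grik1 is highest in dividing OPCs (51.8 CPM) and OPCs (42.7 CPM).

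By class, AMPA subunits summed to 847 ± 255 CPM in quiescent NSCs (SD, n = 7), 209 ± 27.1 CPM in cycling IPCs (n = 7), 855 ± 111 CPM in late neuroblasts (n = 7), 930.1 ± 293 CPM in astrocytes (n = 7) and 972 ± 88.4 CPM in OPCs (n = 7), and only 35.9 ± 6.39 CPM in myelinating oligodendrocytes (n = 6). Their highest means were in committed oligodendrocytes (1040 ± 115 CPM, n = 4) and early neuroblasts (994 ± 511 CPM, n = 4), with ranges that overlapped that of OPCs. GABAA subunits ran from 699 ± 87.8 CPM in astrocytes (n = 7) and 499 ± 76.9 CPM in quiescent NSCs (n = 7) through 300.2 ± 54.1 CPM in late neuroblasts (n = 7) to 76.8 ± 24.4 CPM in cycling IPCs (n = 7), 26.9 ± 15.7 CPM in committed oligodendrocytes (n = 4) and 18.6 ± 4.33 CPM in myelinating oligodendrocytes (n = 6). Kainate and metabotropic subunits were highest as sums in OPCs, at 217 ± 36.9 CPM and 192 ± 26.1 CPM (n = 7 each). Dividing OPCs followed, with overlapping ranges, at 173 ± 58.4 CPM and 138 ± 38.8 CPM (n = 3).

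The subunit that supplied most UMIs differed between cell types for the Grin2 and GABAA gamma genes. Of the AMPA genes, Gria2 supplied most in quiescent NSCs, astrocytes, late neuroblasts and OPCs. Of the Grin2 genes, which set the kinetics of NMDA receptors, Grin2b supplied 94.8% of 822 UMIs in quiescent NSCs and 91.0% of 1027 in late neuroblasts, Grin2c 72.0% of 1287 in astrocytes, and Grin2d 78.8% of 293 in OPCs. Of the 293 UMIs 175 came from 6mo-3, where Grin2b supplied 8.57%, and in 1mo-1 Grin2b supplied 60.9% of 23, so the leading subunit of OPCs differed between experiments. Of the GABAA gamma subunits, Gabrg3 supplied 88.0% of 267 UMIs in quiescent NSCs, Gabrg1 91.5% of 639 in astrocytes, and in OPCs Gabrg1 and Gabrg3 supplied 55.6% and 33.8% of 1533. Gabrb1 was 98.8% of beta subunit UMIs in quiescent NSCs and 99.3% in astrocytes. Gria2, the subunit that makes edited AMPA receptors impermeable to calcium, was 91.4% of AMPA UMIs in quiescent NSCs and 64.9% in OPCs, where Gria3 (19.8%) and Gria4 (14.1%) made up most of the rest. In GRCm38 (GENCODE M21) the gamma subunit genes Gabrg3 and Gabrg1 lie on the minus strand at chr7:56716465-57387188 and at chr5:70751047-70842617, the latter in a cluster with Gabra2. Gabra4 and Gabrb1 overlap on opposite strands, and the strand setting of the counting is not given in the sources used here.

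Taken per experiment, the Gria2 share was 67.6% ± 6.30 in OPCs and 92.5% ± 3.04 in quiescent NSCs (SD, n = 7), 24.9 percentage points lower in 7 of 7 experiments (two-sided exact sign-flip permutation test, p = 0.0156, the smallest 7 pairs allow; adjusted p = 0.0859 over 11 comparisons of shares). In astrocytes it was 97.1% ± 1.59, higher by 4.63 points in 7 of 7 (exact permutation p = 0.0156, adjusted p = 0.0859). The Grin2b share was lower in astrocytes by 63.2 points in 4 of 4 experiments with enough UMIs (exact permutation p = 0.125, the smallest 4 pairs allow). No share comparison passed an adjusted p of 0.05. With at most 7 pairs and 11 comparisons none could have passed, whatever the shares, so this says nothing about whether they differ.

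**Figure D2:**
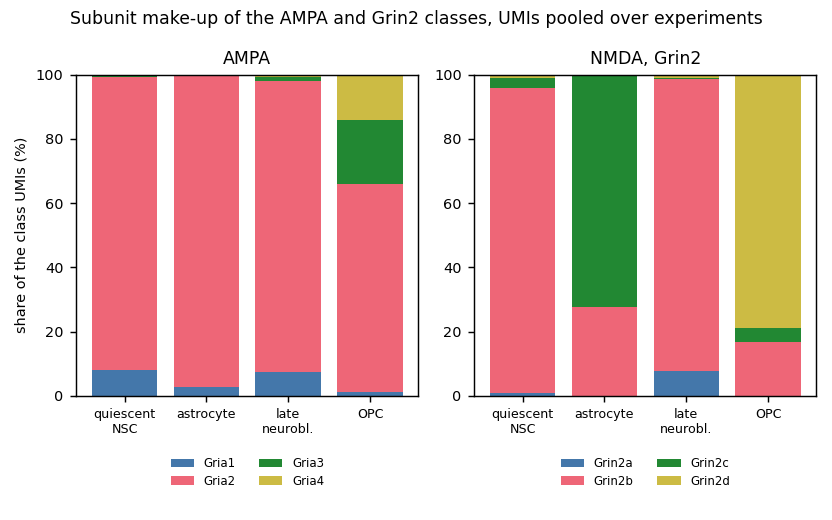
Share of each subunit in the UMIs of its class (percent, pooled over experiments) for AMPA and Grin2 genes, in quiescent NSCs, astrocytes, late neuroblasts and OPCs. The Grin2 panel has a different leading subunit in NSCs (Grin2b, 94.8%), astrocytes (Grin2c, 72.0%) and OPCs (Grin2d, 78.8%); 175 of the 293 OPC UMIs came from 6mo-3, and in 1mo-1 Grin2b led.

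Cycling NSCs were set against quiescent NSCs. These gated types differed in more than the cell cycle. Markers shared by NSCs and astrocytes summed to 1964 CPM in cycling and 12020 CPM in quiescent NSCs. The NSC list summed to 4447 and 8342 CPM, and the neuroblast list to 662 and 144 CPM. Markers of GABAergic neurons summed to 2.58 to 39.8 CPM per experiment in cycling and 0 to 4.75 CPM in quiescent NSCs. The part of these in the differences below was not tested. Of 40 members tested, 12 were lower and 0 higher in cycling NSCs; 32.8% of all 14867 genes tested were called in this comparison. The median log2 difference of the members was −1.57 (also −1.57 over the 23 with a value or bound, where the others had too few UMIs to set one and genes at 0 in a group took their bound), against −0.30 over all genes. With DESeq2 the members' median was −0.66 against −0.11, and the 12 called members were lower in 4 of 4 paired experiments. Cycling NSCs had a median of 8749 UMIs per cell and quiescent NSCs 4307.5, and whether this bears on the levels was not tested.

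Gabrb1, a beta subunit of GABAA receptors, was 64.1, 22.8, 41.3 and 43.8 CPM in 1mo-1, 2mo-1, 2mo-2 and 6mo-3 in cycling NSCs, and 302 to 495 CPM (median 354, n = 7) in quiescent NSCs. The groups did not overlap (log2 difference −3.15 ± 0.26 (SE), edgeR adjusted p = 2.3e-18). Gabbr1, which binds GABA in the GABAB receptor, was 57.3, 68.3, 41.3 and 36.1 CPM in 1mo-1, 2mo-1, 2mo-2 and 6mo-3 in cycling NSCs and 149 to 247 CPM (median 197, n = 7) in quiescent NSCs, again without overlap (log2 difference −2.14 ± 0.20 (SE), edgeR adjusted p = 5.6e-16). Gria2 was 228, 262, 138 and 536 CPM in 1mo-1, 2mo-1, 2mo-2 and 6mo-3 in cycling NSCs, and in quiescent NSCs 460.3 to 1084 CPM (median 831, n = 7). Here the groups overlapped, with 6mo-3 highest in both, but the level was lower in cycling NSCs of every experiment (log2 difference −1.55 ± 0.20 (SE), edgeR adjusted p = 2.4e-10). Grin2b, the NMDA subunit that prevails in immature neurons, was 37.1, 45.5, 13.8 and 74.7 CPM in 1mo-1, 2mo-1, 2mo-2 and 6mo-3 in cycling NSCs and 86.3 to 176 CPM (median 119, n = 7) in quiescent NSCs, with no overlap (log2 difference −1.56 ± 0.27 (SE), edgeR adjusted p = 2.0e-06). The 2mo-2 sum of cycling NSCs held 72666 UMIs, so its values here and below rest on few counts. Grin2b had 1 UMI there and 8 in 2mo-1.

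Other called members were Grm3, a metabotropic receptor coupled to inhibition of cyclic AMP (−2.00 ± 0.47), Gria1, an AMPA subunit (−1.70 ± 0.38), Gabrg3 (−1.17 ± 0.37) and Grik5, a kainate subunit that needs a partner to form channels (−1.15 ± 0.29), as log2 differences ± SE. Gabra2, Grid1 and Grik2 also fell but had 3 or fewer UMIs in cycling NSCs. For Gabra2, an alpha subunit, there were 2 against 68 UMIs, a ratio of 0.164 with an interval of 0.0194 to 0.614. For Grid1 there were 3 against 71 UMIs, a ratio of 0.235 with an interval of 0.0473 to 0.715, and for Grik2 2 against 53 UMIs, a ratio of 0.210 with an interval of 0.0248 to 0.796 (95% exact counting intervals, which like all intervals here cover counting error only). Gabra4, an alpha subunit, was 64.7 ± 14.1 CPM (SD, n = 4) in cycling and 62.6 ± 13.1 CPM (SD, n = 7) in quiescent NSCs and was not called. With 1 experiment left out, the edgeR adjusted p was above 0.05 for Gabrg3 (0.12 without 6mo-3), Grid1 (0.13 without 6mo-3), Grik2 (0.20 without 1mo-1) and Grik5 (0.051 without 1mo-1). Within the Version 3 experiments 13 of 38 members were called (29.9% of all genes) and within Version 2, which has fewer cells, 4 of 33 (16.2%), all lower.

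From cycling NSCs to cycling IPCs, the dividing progeny that have begun neuronal differentiation, 1 of 40 members was higher and 4 lower, where 10.7% of all genes were called. The members' median log2 difference was 0.07 over the 40, −0.43 over the 22 with a value or bound and −0.17 with DESeq2, so the sign differed, against 0.12 over all genes. Gabrg3 was 20.2, 17.1, 13.8 and 15.5 CPM in 1mo-1, 2mo-1, 2mo-2 and 6mo-3 in cycling NSCs and 0 to 3.79 CPM (median 2.83, n = 7) in cycling IPCs, without overlap (log2 difference −2.38 ± 0.52 (SE), edgeR adjusted p = 0.00057). Gabrb1 fell further, to 7.13 to 25.4 CPM (median 8.12, n = 7) in cycling IPCs (log2 difference −2.17 ± 0.38 (SE), edgeR adjusted p = 8.2e-06), and only 1 experiment of each type overlapped. Gria1 (log2 difference −1.48 ± 0.51) and Gabra4 (−0.78 ± 0.26) were lower too. The edgeR adjusted p was above 0.05 with 1 experiment left out for Gabra4 (0.48 without 6mo-3) and Gria1 (0.17 to 0.38 without 1mo-1 or 6mo-3). The count of members called was 3 without 1mo-1 and 2 without 6mo-3. Within Version 3, 7 of 38 members were called (10.1% of all genes), and within Version 2 0 of 33 (2.86%; edgeR; 1 had an unadjusted p under 0.05).

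Non-cycling IPCs were set against cycling IPCs. In non-cycling IPCs 9 of 40 members were higher and 3 lower, where 22.2% of all genes were called. The median log2 difference was 0.51 for members, 0.56 over the 27 with a value or bound, and 0.00 for all genes. The 2 types differed in more than the cell cycle. The neuroblast list summed to 4062 CPM in cycling and 9180 CPM in non-cycling IPCs. The late neuroblast list summed to 229 and 972 CPM, and the NSC list to 1761 and 751 CPM. The part of this in the differences was not tested. Gabra2 was 0 to 10.4 CPM (median 2.83, n = 7) in cycling and 20.8 to 54.2 CPM (median 32.7, n = 6) in non-cycling IPCs, and the groups did not overlap (log2 difference 2.74 ± 0.31 (SE), edgeR adjusted p = 8.3e-12; higher in 6 of 6 experiments). Gria2 was 165 to 229.7 CPM (median 199.7, n = 7) and then 266 to 578 CPM (median 329, n = 6), without overlap (log2 difference 0.85 ± 0.16 (SE), edgeR adjusted p = 1.6e-05). Gabbr1 was 24.0 to 56.5 CPM (median 33.9, n = 7) and then 68.6 to 145 CPM (median 85.7, n = 6), also without overlap (log2 difference 1.33 ± 0.16 (SE), edgeR adjusted p = 1.0e-10). Grin2b was 7.78 to 32.6 CPM (median 22.8, n = 7) and then 42.9 to 107 CPM (median 59.0, n = 6), again apart (log2 difference 1.38 ± 0.24 (SE), edgeR adjusted p = 3.1e-06).

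Grin1, the obligatory NMDA subunit (log2 difference 1.95 ± 0.68), Gria1 (1.36 ± 0.41) and Grik2, a kainate subunit (0.97 ± 0.37) were also higher in non-cycling IPCs, and Gabra4 was lower (−1.13 ± 0.27; 6 of 6). Of the members with 3 or fewer UMIs in a group, Grm5, a metabotropic receptor coupled to calcium release, had 9 against 3 UMIs, a ratio of 7.59 with an interval of 1.89 to 43.6, and Gabrg3 had 1 against 22 UMIs, a ratio of 0.115 with an interval of 0.00279 to 0.712 (with a floor of 3 counts over a group at 0, as for all bounds). Leaving out 1 experiment took the edgeR adjusted p above 0.05 for Gabrg3 (0.060 to 0.19 without 1mo-1, 2mo-1, 2mo-2, 2mo-3 or 6mo-3), Gria1 (0.075 without 1mo-1), Grik2 (0.051 to 0.14 without 1mo-1, 2mo-1, 2mo-2, 2mo-3, 6mo-1 or 6mo-3), Grin1 (0.10 to 0.18 without 1mo-1 or 2mo-2) and Grm5 (0.059 to 0.43 without 1mo-1, 2mo-2 or 6mo-2). Without 1mo-1, 7 members were called. Of the 12 members lower in cycling NSCs, 6 (Gabbr1, Gabra2, Gria1, Gria2, Grik2 and Grin2b) were higher in non-cycling than in cycling IPCs; of the 3048 genes lower in cycling NSCs, 18.2% were. Within each chemistry version 7 members were called (Version 3 18.6% and Version 2 14.6% of all genes).

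**Figure D3:**
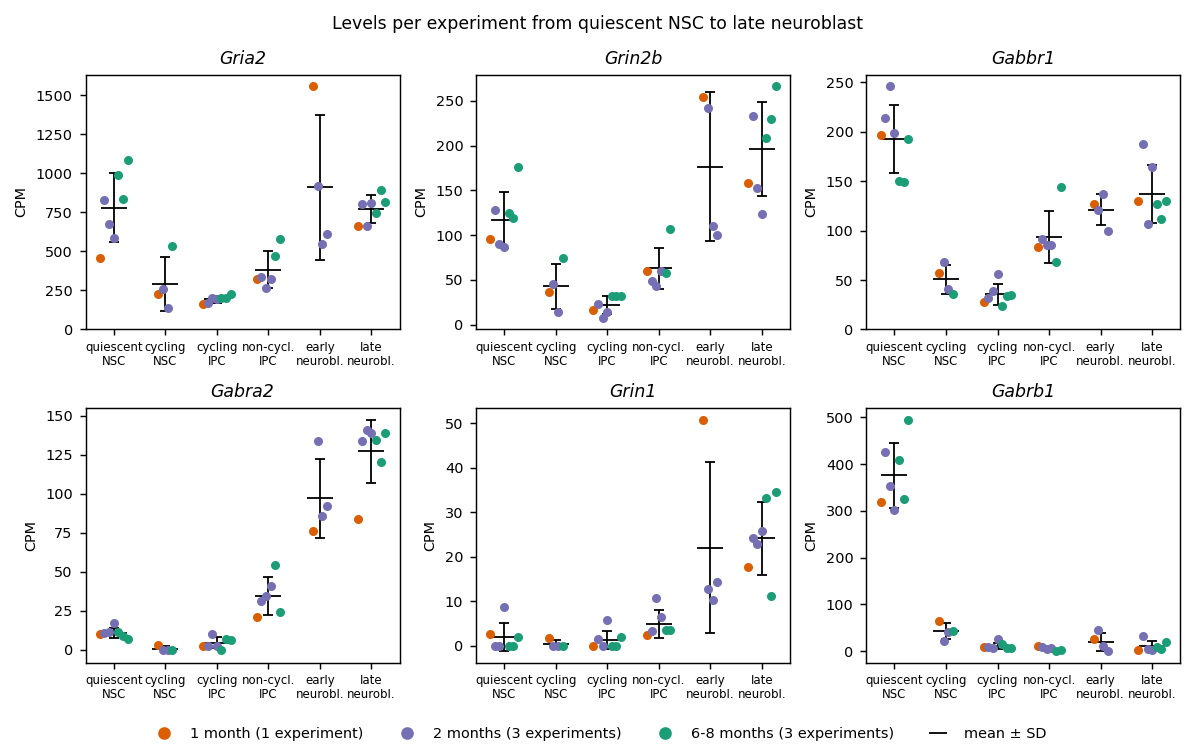
Level (CPM, linear axes) of Gria2, Grin2b, Gabbr1, Gabra2, Grin1 and Gabrb1 along the neural lineage from quiescent NSC to late neuroblast; points are experiments and bars the mean ± SD. Gria2, Grin2b and Gabbr1 are lowest in cycling IPCs (194, 22.6 and 35.4 CPM), Gabra2 and Grin1 are highest in neuroblasts, and Gabrb1 falls from 376 CPM in quiescent to 43.0 CPM in cycling NSCs.

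Early neuroblasts were compared with non-cycling IPCs in the 4 experiments with enough early neuroblasts. Early neuroblasts had a median of 2021 UMIs per cell and non-cycling IPCs 3920. Whether this bears on the levels was not tested. There were 10 members higher and 0 lower, against 3.72% of all genes called, and the members' median log2 difference was 1.40 (1.54 over the 23 with a value or bound) against −0.08. Gria2 was 1562, 918, 549 and 612 CPM in 1mo-1, 2mo-1, 2mo-2 and 2mo-3 in early neuroblasts, against 266 to 578 CPM (median 329, n = 6) in non-cycling IPCs; the 1-month sum was highest, and 2mo-2 lay within the IPC range (log2 difference 1.20 ± 0.19 (SE), edgeR adjusted p = 7.0e-06). Grin2b was 254, 242, 109.8 and 99.7 CPM in 1mo-1, 2mo-1, 2mo-2 and 2mo-3 (log2 difference 1.53 ± 0.28 (SE), edgeR adjusted p = 0.00012) and Gabra2 76.2, 134, 85.8 and 92.6 CPM in 1mo-1, 2mo-1, 2mo-2 and 2mo-3 (log2 difference 1.47 ± 0.29 (SE), edgeR adjusted p = 0.00035), and for Gabra2 no early neuroblast sum overlapped with the IPC range.

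Grm5 (2.90 ± 0.69), Grik2 (1.63 ± 0.46) and Gria1 (1.54 ± 0.48) were higher as well, as log2 differences ± SE. Gabra5, an alpha subunit found outside synapses, had 7 against 2 UMIs, a ratio of 14.8 with an interval of 2.82 to 146, and Gria3, an AMPA subunit, had 10 against 3 UMIs, a ratio of 14.1 with an interval of 3.63 to 79.7. Grin2a, the NMDA subunit of mature neurons, had 9 against 0 UMIs, at least 12.7-fold higher, but all 9 UMIs came from 2mo-1. In that experiment the 6 markers of mature granule neurons summed to 1077 CPM in early neuroblasts, the highest of a range that began at 223 CPM, and their part in these values was not tested. Calls lost when 1 experiment was left out (edgeR adjusted p above 0.05) included Gabra5 (0.069 to 0.22 without 1mo-1, 2mo-1, 2mo-3, 6mo-1 or 6mo-3), Gria1 (0.055 to 0.47 without 1mo-1, 2mo-1, 6mo-1, 6mo-2 or 6mo-3), Gria3 (0.54 without 2mo-1), Grik2 (0.058 to 0.63 without 1mo-1, 2mo-1 or 6mo-3), Grin2a (1.0 without 2mo-1) and Grm5 (0.059 without 2mo-1). Values that moved by over 1.5 times included log2 differences of 3.52 for Grm5 without 1mo-1 and 0.77 for Grik2 without 1mo-1. Members called numbered 6 without 1mo-1 and 3 without 2mo-1. Within Version 3, 3 of 38 members were called (1.70% of all genes) and within Version 2 7 of 33 (3.34%); Gria3 had the opposite sign within Version 3 (log2 difference −3.32, not called).

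Between late and early neuroblasts 0 of 40 members were called by edgeR, and 7 genes in all (0.0471%). The 2 types were split only by how many late neuroblast markers had a UMI in a cell. The median was 2021 UMIs per cell in early and 4208 in late neuroblasts. Whether depth bears on this split or on the count of calls was not tested. There were 6 members at an unadjusted p under 0.05, DESeq2 called 0 members, and edgeR called 1 within the Version 3 experiments.

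Late neuroblasts, which are taking on the form of granule neurons, differed from quiescent NSCs in 29 of 40 members, 20 higher and 9 lower, where 57.4% of all genes were called (median log2 difference 1.24 for members, 1.28 over the 35 with a value or bound, and −0.08 for all genes). Different GABAA subunits were high in the 2 types. Gabrb1 was 2.58 to 33.1 CPM (median 5.71, n = 7) in late neuroblasts, far below quiescent NSCs (log2 difference −5.18 ± 0.22 (SE), edgeR adjusted p = 3.6e-36), and Gabrg3 was 0 to 3.01 CPM (median 2.58, n = 7) against 8.63 to 68.2 CPM (median 33.7, n = 7) (log2 difference −4.68 ± 0.40 (SE), edgeR adjusted p = 4.4e-18). Gabra2 was higher, at 84.2 to 141 CPM (median 135, n = 7) against 7.14 to 17.3 CPM (median 10.7, n = 7) (log2 difference 3.26 ± 0.20 (SE), edgeR adjusted p = 2.0e-26). In none of these 3 genes did the experiments of the 2 types overlap.

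Further GABAA subunits rose from low levels: Gabra5 had a log2 difference of 3.05 ± 0.56, Gabrd, a subunit of receptors outside synapses, had 23 against 3 UMIs, a ratio of 10.8 with an interval of 3.26 to 56.2, and Gabrb2 had 6 against 0 UMIs, at least 2.82-fold higher. Gabra4 fell (−1.29 ± 0.19). For GABAB receptors, Gabbr2 rose (3.06 ± 0.64) and Gabbr1 fell by a small amount (−0.63 ± 0.12; lower in 7 of 7).

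Among glutamate receptors, Grin1 was 11.2 to 34.4 CPM (median 24.1, n = 7) in late neuroblasts and 0 to 8.63 CPM (median 0, n = 7) in quiescent NSCs, and the groups did not overlap (log2 difference 3.37 ± 0.39 (SE), edgeR adjusted p = 4.2e-12). Grin2a was 0 to 42.1 CPM (median 25.2, n = 7) and 0 to 7.09 CPM (median 0, n = 7), with overlap, since 2mo-2 had none (log2 difference 3.25 ± 0.52 (SE), edgeR adjusted p = 3.9e-07). Grin2b was higher in 7 of 7 experiments by little (log2 difference 0.58 ± 0.16 (SE), edgeR adjusted p = 0.00094). The AMPA subunits Gria4 (2.21 ± 0.50) and Gria3 (1.20 ± 0.46), the kainate subunits Grik4 (1.36 ± 0.35) and Grik2 (1.28 ± 0.28), and Grm5 (1.88 ± 0.34) rose, while the delta subunit Grid1 (−0.91 ± 0.35) and Grm3 (−4.05 ± 0.41) fell.

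Of members with few counts, the presynaptic-type metabotropic receptors Grm2 and Grm7 had 28 against 0 UMIs, at least 13.1-fold higher (a UMI in 7 of 7 experiments), and 35 against 2 UMIs, a ratio of 24.6 with an interval of 6.33 to 212. Grik3 had 9 against 0 UMIs, at least 4.23-fold higher. Grin2c had 1 against 27 UMIs, a ratio of 0.0522 with an interval of 0.00127 to 0.316, and Grin3a 2 against 14 UMIs, a ratio of 0.201 with an interval of 0.0222 to 0.876. The 6 markers of mature granule neurons, which are more advanced than neuroblasts, had UMIs in late neuroblasts and summed to 279 to 983 CPM per experiment, against 34.5 to 259 CPM in quiescent NSCs; their part in these differences was not tested. Of the 29 members called, 3, among them Grm2 and Grin2a, reached the minimum of 30 UMIs only through the late neuroblast sums. The edgeR adjusted p was above 0.05 with 1 experiment left out for Gria3 (0.062 to 0.13 without 2mo-1 or 6mo-3), Grid1 (0.068 to 0.097 without 2mo-1, 2mo-2, 6mo-1, 6mo-2 or 6mo-3), Grik3 (0.12 without 2mo-1) and Grin3a (0.11 without 6mo-3). Differences that moved by over 1.5 times included 4.50 for Grin1 without 1mo-1, 1.86 for Gria3 without 1mo-1, 4.34 for Gabbr2 without 1mo-1, −3.30 for Grm3 without 1mo-1, −4.03 for Gabrg3 without 1mo-1, 4.08 for Grin2a without 6mo-2 and 2.49 for Grm5 without 6mo-3. Within Version 3, 26 of 38 members were called (55.7% of all genes), and within Version 2 20 of 33 (39.9%).

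Astrocytes and quiescent NSCs share much of their expression, and the receptor genes were compared between them. In astrocytes 11 of 40 members were higher and 4 lower, where 23.3% of all genes were called (median log2 difference 0.28 for members, 0.38 over the 30 with a value or bound, and −0.02 for all genes). Grin2c was 119 to 383 CPM (median 173, n = 7) in astrocytes and 0 to 11.4 CPM (median 5.32, n = 7) in quiescent NSCs (log2 difference 5.27 ± 0.23 (SE), edgeR adjusted p = 5.3e-34). Gabrg1 was 67.2 to 195 CPM (median 127, n = 7) and 2.37 to 8.63 CPM (median 5.32, n = 7) (log2 difference 4.73 ± 0.25 (SE), edgeR adjusted p = 1.9e-28), and Gabra2 was 42.0 to 132 CPM (median 77.0, n = 7) and 7.14 to 17.3 CPM (median 10.7, n = 7) (log2 difference 2.79 ± 0.21 (SE), edgeR adjusted p = 1.4e-19). For each of these 3 genes every astrocyte sum lay above every NSC sum. Grin3a, an NMDA subunit that lowers calcium entry, was 7.45 to 24.4 CPM (median 13.4, n = 7) and 0 to 8.63 CPM (median 2.84, n = 7), with little overlap and higher in 7 of 7 (log2 difference 3.00 ± 0.38 (SE), edgeR adjusted p = 3.8e-10).

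Grm5 was 13.2 to 29.4 CPM (median 24.2, n = 7) in astrocytes and 0 to 17.3 CPM (median 4.75, n = 7) in quiescent NSCs (log2 difference 2.22 ± 0.34 (SE), edgeR adjusted p = 8.5e-08), and Grm3 42.7 to 95.04 CPM (median 76.4, n = 7) and 11.2 to 48.3 CPM (median 33.7, n = 7) (log2 difference 1.41 ± 0.21 (SE), edgeR adjusted p = 5.4e-08); both overlapped in range but were higher in 6 and 7 of 7 experiments. Gria1 ran the other way, with 0 to 35.4 CPM (median 30.8, n = 7) in astrocytes and 8.63 to 117 CPM (median 44.9, n = 7) in quiescent NSCs (lower in 7 of 7; log2 difference −1.18 ± 0.25 (SE), edgeR adjusted p = 9.3e-05), as did Gabrg3 (−1.65 ± 0.27) and Grin2b (−0.67 ± 0.18; lower in 7 of 7). Smaller rises were called for Gabbr1 (0.47 ± 0.11), Grik2 (1.01 ± 0.31), Grid1 (0.95 ± 0.28) and Grik5 (0.48 ± 0.17). Gabbr2 had a large log2 difference (3.42 ± 0.62), but from few UMIs. Grin2a had 0 against 8 UMIs, at least 1.94-fold lower. The main beta subunit Gabrb1 (418 ± 82.6 CPM (SD, n = 7) and 376 ± 69.9 CPM (SD, n = 7)) and Gria2 (903 ± 284 CPM (SD, n = 7) and 779.8 ± 221 CPM (SD, n = 7)) were not called. Leaving out 1 experiment took the edgeR adjusted p above 0.05 for Gabbr2 (0.17 without 2mo-1), Grid1 (0.50 without 1mo-1), Grik2 (0.19 without 2mo-1), Grik5 (0.060 to 0.17 without 1mo-1, 2mo-1, 2mo-2 or 6mo-1) and Grin2a (0.060 to 0.093 without 6mo-2 or 6mo-3). Without 1 experiment, the log2 difference was 4.58 for Gabbr2 without 1mo-1, 1.53 for Grm5 without 1mo-1, 1.52 for Gabbr2 without 2mo-1 and 2.84 for Grm5 without 6mo-3. Within Version 3, 12 of 38 members were called (17.7% of all genes), and within Version 2 11 of 33 (17.6%).

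**Figure D4:**
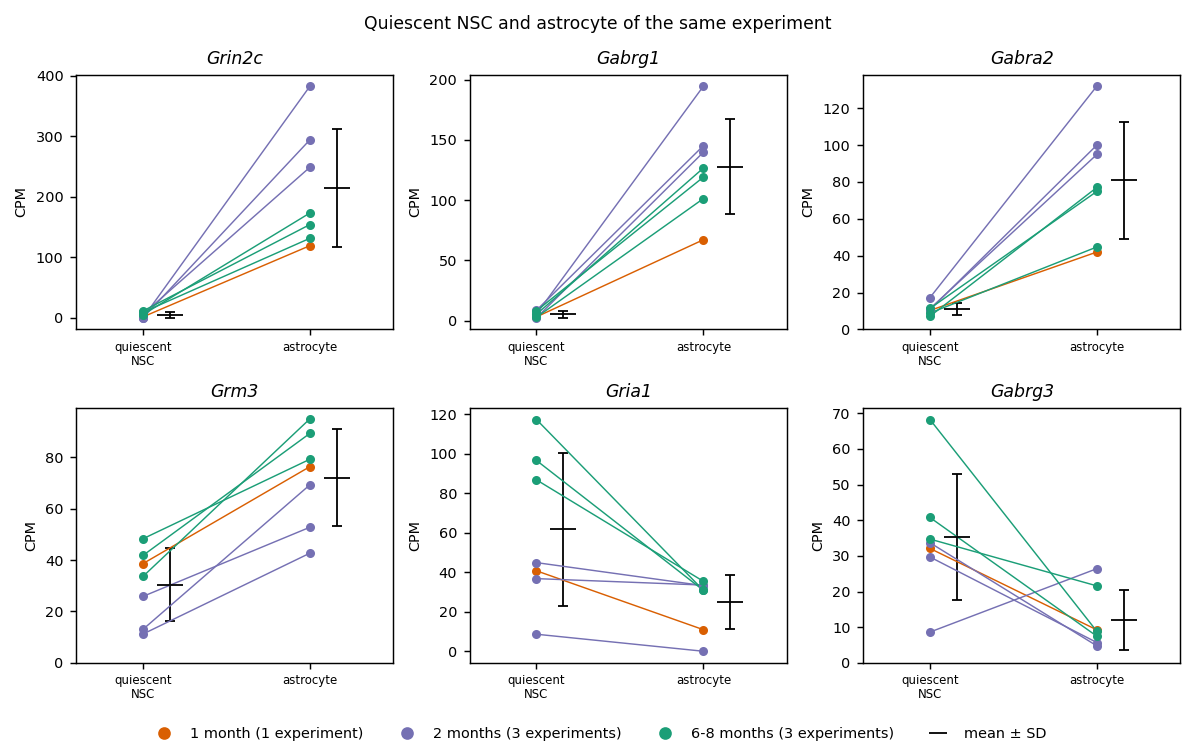
Level (CPM, linear axes) of Grin2c, Gabrg1, Gabra2, Grm3, Gria1 and Gabrg3 in quiescent NSCs and astrocytes; each line joins the sums of 1 experiment (n = 7). Grin2c, Gabrg1 and Gabra2 rise in every experiment without overlap, and Gria1 falls in every experiment.

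OPCs were compared with quiescent NSCs, the non-dividing cells of the other lineage. Of 40 members 25 were higher and 9 lower in OPCs, where 51.9% of all genes were called, and the members' median log2 difference was 1.92 (2.16 over the 38 with a value or bound) against 0.06. Among the AMPA subunits, Gria3 was 129 to 269.7 CPM (median 192, n = 7) in OPCs and 0 to 8.86 CPM (median 2.04, n = 7) in quiescent NSCs (log2 difference 5.37 ± 0.27 (SE), edgeR adjusted p = 2.1e-31), and Gria4 was 69.3 to 162 CPM (median 115, n = 7) and 0 to 8.63 CPM (median 1.19, n = 7) (log2 difference 6.01 ± 0.29 (SE), edgeR adjusted p = 4.0e-33). Neither pair of ranges overlapped. Gria1 was lower (−2.73 ± 0.23), and Gria2 was 602 to 781 CPM (median 621, n = 7) in OPCs and lower by little (log2 difference −0.48 ± 0.14 (SE), edgeR adjusted p = 0.0024), a call lost when total UMIs were used for scaling (−0.22, edgeR adjusted p = 0.18).

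The NMDA subunits differed: Grin2b was 1.18 to 7.70 CPM (median 3.83, n = 7) in OPCs and 86.3 to 176 CPM (median 119, n = 7) in quiescent NSCs (log2 difference −6.02 ± 0.25 (SE), edgeR adjusted p = 1.5e-36), while Grin3a was 64.2 to 167 CPM (median 141, n = 7) and 0 to 8.63 CPM (median 2.84, n = 7) (log2 difference 5.56 ± 0.26 (SE), edgeR adjusted p = 1.1e-33). The ranges of both genes were apart. Grin1 (2.47 ± 0.40) and Grin2d (2.14 ± 0.47) were higher and Grin2c (−3.01 ± 0.48) lower, and Grin2a had 0 against 8 UMIs, at least 8.52-fold lower. Grm5, a receptor through which glutamate raises calcium, was 146 to 229 CPM (median 165, n = 7) in OPCs, above every NSC sum (log2 difference 4.57 ± 0.25 (SE), edgeR adjusted p = 6.6e-30), and Grm3 was 0 to 5.13 CPM (median 0.868, n = 7), below every NSC sum (log2 difference −5.23 ± 0.33 (SE), edgeR adjusted p = 4.9e-25). Grm7 had 328 against 2 UMIs, a ratio of 51.3 with an interval of 14.1 to 426, and Grm4 80 against 1 UMIs, a ratio of 25.0 with an interval of 4.37 to 1001.

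All 5 kainate subunits were higher in OPCs. Grik1 was 19.5 to 62.6 CPM (median 40.8, n = 7) with no UMI in quiescent NSCs (809 against 0 UMIs, at least 84.4-fold higher), and Grik3 was 16.8 to 45.9 CPM (median 21.3, n = 7) (565 against 0 UMIs, at least 59.0-fold higher). Grik4 (2.19 ± 0.28), Grik2 (1.70 ± 0.24) and Grik5 (0.92 ± 0.14) were higher by less, as was the delta subunit Grid1 (2.21 ± 0.22). Of the GABAA subunits, Gabra3 (454 against 0 UMIs, at least 47.4-fold higher) and Gabrb2 (231 against 0 UMIs, at least 24.1-fold higher) had no UMI in quiescent NSCs, and Gabrg1 (2.74 ± 0.28) and Gabra2 (1.06 ± 0.22) were higher. Gabre, a rare subunit, had 39 against 1 UMIs, a ratio of 12.2 with an interval of 2.07 to 494. Of the members called, 3 (Gabre, Gabrb2 and Grm4) reached the minimum of 30 UMIs only through the OPC sums.

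Gabrb1 was 30.4 to 65.0 CPM (median 51.3, n = 7) in OPCs and lower than in every NSC sum (log2 difference −3.29 ± 0.16 (SE), edgeR adjusted p = 2.1e-32), and Gabra4 (−2.43 ± 0.18) and Gabrg3 (−1.09 ± 0.21) were lower too. For GABAB receptors, Gabbr2 was 26.2 to 55.5 CPM (median 38.5, n = 7) in OPCs (log2 difference 4.77 ± 0.47 (SE), edgeR adjusted p = 1.5e-14) and Gabbr1 rose slightly (0.33 ± 0.11; higher in 7 of 7). Leaving out 1 experiment took the edgeR adjusted p above 0.05 for Gabre (0.064 to 0.15 without 1mo-1 or 2mo-1). Without 1 experiment, the log2 difference was 3.43 for Grin1 without 1mo-1, 5.72 for Gabbr2 without 1mo-1, −5.36 for Grin2b without 6mo-3 and 5.23 for Grm5 without 6mo-3. Within Version 3, 34 of 38 members were called (52.8% of all genes), and within Version 2 23 of 33 (30.2%).

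Dividing OPCs, present in 3 experiments, differed from OPCs in 2 of 40 members, both lower, where 9.08% of all genes were called (median log2 difference −0.39 for members and −0.20 for all genes). Gabbr1 was 160.0, 155 and 206 CPM in 1mo-1, 6mo-2 and 6mo-3 in dividing OPCs and 264 to 332 CPM (median 274, n = 7) in OPCs, without overlap (log2 difference −0.81 ± 0.16 (SE), edgeR adjusted p = 7.1e-05), and Grik5 was 56.9, 30.04 and 86.1 CPM in 1mo-1, 6mo-2 and 6mo-3 against 61.6 to 117 CPM (median 90.8, n = 7), with overlap (log2 difference −0.70 ± 0.20 (SE), edgeR adjusted p = 0.015). Calls lost when 1 experiment was left out (edgeR adjusted p above 0.05) included Grik5 (0.079 to 0.15 without 1mo-1 or 6mo-2). Gria2 was 593 ± 54.7 CPM (SD, n = 3) in dividing and 655 ± 63.8 CPM (SD, n = 7) in non-dividing OPCs, and Grm5 129 ± 30.7 CPM (SD, n = 3) and 175 ± 27.3 CPM (SD, n = 7); neither was called. Within Version 3, which held all dividing OPC sums, 2 members were called (11.2% of all genes).

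A test added after these results were seen set the cycling difference of NSCs against that of OPCs. Only 1mo-1 and 6mo-3 held sums of both cycling NSCs and dividing OPCs. In 4 of 40 members the difference between cycling and quiescent NSCs lay below that between dividing and non-dividing OPCs, and in 0 above, where 10.3% of all genes were called. These included Gabrb1 (log2 difference −2.30 ± 0.48 (SE), edgeR adjusted p = 0.00029), Gabbr1 (log2 difference −1.34 ± 0.26 (SE), edgeR adjusted p = 7.8e-05) and Gria2 (log2 difference −1.20 ± 0.27 (SE), edgeR adjusted p = 0.00080). Calls lost when 1 experiment was left out (edgeR adjusted p above 0.05) included Gabbr1 (0.077 without 6mo-3) and Gabrb1 (0.10 without 6mo-3). Without 6mo-3, 1 of the 4 was called. A difference between the lineages was not shown for the other 8 members that were lower in cycling NSCs.

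Committed and newly formed oligodendrocytes were compared with OPCs in 4 experiments. Of 40 members 28 were lower and 1 higher, where 40.9% of all genes were called, with a median log2 difference of −2.16 for the members, −1.89 over the 35 with a value or bound, and −0.23 for all genes. Grm5 was 26.0, 6.13, 14.3 and 18.2 CPM in 1mo-1, 2mo-1, 6mo-2 and 6mo-3 in committed cells against 146 to 229 CPM (median 165, n = 7) in OPCs (log2 difference −3.02 ± 0.25 (SE), edgeR adjusted p = 1.1e-18). Grin3a was 21.7, 30.7, 31.5 and 30.3 CPM in 1mo-1, 2mo-1, 6mo-2 and 6mo-3 against 64.2 to 167 CPM (median 141, n = 7) (log2 difference −2.21 ± 0.20 (SE), edgeR adjusted p = 3.2e-16), and Gria3 was 86.7, 12.3, 54.4 and 50.3 CPM in 1mo-1, 2mo-1, 6mo-2 and 6mo-3 against 129 to 269.7 CPM (median 192, n = 7) (log2 difference −1.65 ± 0.21 (SE), edgeR adjusted p = 1.9e-10). For each of the 3 the committed cells lay below every OPC sum. Gria2 was the exception: it was 803, 1135, 832 and 925 CPM in 1mo-1, 2mo-1, 6mo-2 and 6mo-3 in committed cells against 602 to 781 CPM (median 621, n = 7) in OPCs, with no overlap and higher in 4 of 4 (log2 difference 0.52 ± 0.16 (SE), edgeR adjusted p = 0.0070). Gria4 was 47.7, 49.1, 81.6 and 77.6 CPM in 1mo-1, 2mo-1, 6mo-2 and 6mo-3 against 69.3 to 162 CPM (median 115, n = 7), with overlap (log2 difference −0.81 ± 0.17 (SE), edgeR adjusted p = 7.5e-05).

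Most GABAA subunits fell. Gabra4 had 2 against 285 UMIs, a ratio of 0.0478 with an interval of 0.00576 to 0.174 and Gabrb2 had 2 against 231 UMIs, a ratio of 0.0590 with an interval of 0.00710 to 0.216. Gabrb1 (log2 difference −2.97 ± 0.38), Gabra2 (−3.15 ± 0.38), Gabra3 (−2.44 ± 0.40), Gabrg1 (−2.11 ± 0.31) and Gabrg3 (−1.89 ± 0.38) were lower too. Gabre had 0 against 39 UMIs, at least 1.91-fold lower; Gabre, Gabrb2 and Grm4 passed the filter on low counts only through the OPC sums. The GABAB genes Gabbr2 (−3.56 ± 0.49) and Gabbr1 (−1.29 ± 0.14) were lower in 4 of 4 experiments.

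Of the remaining glutamate receptor genes, Grik1 had 2 against 809 UMIs, a ratio of 0.0169 with an interval of 0.00204 to 0.0611, Grin2b 0 against 49 UMIs, at least 2.40-fold lower, and Grm4 1 against 80 UMIs, a ratio of 0.0852 with an interval of 0.00213 to 0.488. Gria1 (−3.14 ± 0.68), Grin2d (−2.66 ± 0.60), Grin1 (−2.31 ± 0.48), Grm7 (−1.21 ± 0.42), Grik3 (−1.03 ± 0.33), Grik4 (−1.03 ± 0.28) and Grik5 (−0.87 ± 0.17) were lower by log2 difference ± SE. Grik2 (31.2 ± 11.8 CPM (SD, n = 4) in committed cells, 31.0 ± 9.59 CPM (SD, n = 7) in OPCs) and Grid1 (54.6 ± 26.5 CPM (SD, n = 4) and 64.3 ± 19.3 CPM (SD, n = 7)) were not called. With 1 experiment left out, the edgeR adjusted p was above 0.05 for Grik3 (0.16 without 6mo-3), Grik4 (0.14 without 6mo-3), Grin2b (0.066 without 6mo-3), Grin2d (0.11 without 6mo-3), Grm4 (0.073 without 6mo-3) and Grm7 (0.083 without 1mo-1). The log2 difference became −2.95 for Grin1 without 6mo-3, −2.83 for Gabrg1 without 6mo-3, −2.11 for Grm7 without 6mo-3 and −1.81 for Grin2d without 6mo-3. Within Version 3, 29 of 38 members were called (44.6% of all genes), and within Version 2, with 1 sum of committed cells, 8 of 33 (8.74%).

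Myelinating oligodendrocytes differed from committed cells in 21 of 40 members, 17 lower and 4 higher, where 48.2% of all genes were called (median log2 difference −0.98 for members, −1.26 over the 30 with a value or bound, and 0.16 for all genes). Gria2 was 18.4 to 29.9 CPM (median 25.2, n = 6) in myelinating cells, below every committed sum (log2 difference −4.55 ± 0.19 (SE), edgeR adjusted p = 6.7e-37). Gria3 was 0.218 to 1.30 CPM (median 0.891, n = 6) (log2 difference −5.54 ± 0.35 (SE), edgeR adjusted p = 3.0e-25), and Grid1 was 0 to 1.53 CPM (median 0.918, n = 6) against 54.9, 30.7, 41.5 and 91.5 CPM in 1mo-1, 2mo-1, 6mo-2 and 6mo-3 (log2 difference −5.17 ± 0.29 (SE), edgeR adjusted p = 7.9e-28), both also apart from the committed sums. Of the AMPA and NMDA genes, Gria4 (−2.00 ± 0.21), Grin3a (−3.47 ± 0.31), Grin1 (−2.79 ± 0.79) and Grin2d (−2.14 ± 0.90) were lower. So were Grm5 (−3.71 ± 0.42), Grik3 (−3.02 ± 0.47), Grik5 (−1.11 ± 0.19), Grik4 (−1.01 ± 0.33), Gabbr2 (−2.68 ± 0.92), Gabrg3 (−3.32 ± 0.63), Gabrg1 (−3.25 ± 0.52) and Gabra3 (−1.36 ± 0.57).

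The 4 members that were higher in myelinating cells were Grm3, Gabrr2, Grik1 and Gabbr1. Gabbr1 was 279 to 321 CPM (median 307, n = 6) in myelinating cells against 95.4, 110.4, 112 and 111 CPM in 1mo-1, 2mo-1, 6mo-2 and 6mo-3 in committed cells, without overlap (log2 difference 2.11 ± 0.14 (SE), edgeR adjusted p = 1.9e-23). Grm3 was 19.7 to 95.2 CPM (median 58.0, n = 6) and had 2006 against 1 UMIs, a ratio of 231 with an interval of 41.4 to 9120.0. Its level was 21.3, 27.8 and 19.7 CPM in the 2-month experiments and 93.4, 95.2 and 88.2 CPM in the 6–8-month experiments, which also differ in chemistry. Gabrr2, a rho subunit, was 6.36 to 10.3 CPM (median 9.23, n = 6) and had 244 against 1 UMIs, a ratio of 28.1 with an interval of 4.99 to 1113 (it passed the filter on low counts only through these cells), and Grik1 was 3.93 to 21.1 CPM (median 8.11, n = 6) and had 325 against 2 UMIs, a ratio of 18.7 with an interval of 5.13 to 155. The edgeR adjusted p was above 0.05 with 1 experiment left out for Gabbr2 (0.11 without 6mo-3), Gabra3 (0.051 to 0.18 without 1mo-1, 2mo-1, 2mo-2, 2mo-3, 6mo-1, 6mo-2 or 6mo-3), Grik4 (0.19 without 6mo-2), Grin1 (0.26 without 6mo-3) and Grin2d (0.064 to 0.14 without 1mo-1, 2mo-1, 6mo-1, 6mo-2 or 6mo-3). Differences that moved by over 1.5 times included −2.52 for Gabrg3 without 6mo-2, −1.87 for Grin1 without 6mo-3, −3.85 for Grik3 without 6mo-3, −2.28 for Gabrg1 without 6mo-3, −2.91 for Grin2d without 6mo-3 and −1.60 for Grik4 without 6mo-3. Within Version 3, 21 of 38 members were called (51.3% of all genes), and within Version 2, with 1 sum of committed cells, 7 of 33 (15.1%); there Grin1, Gabrg1, Grin2d and Gabrg3 had the opposite sign without being called.

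**Figure D5:**
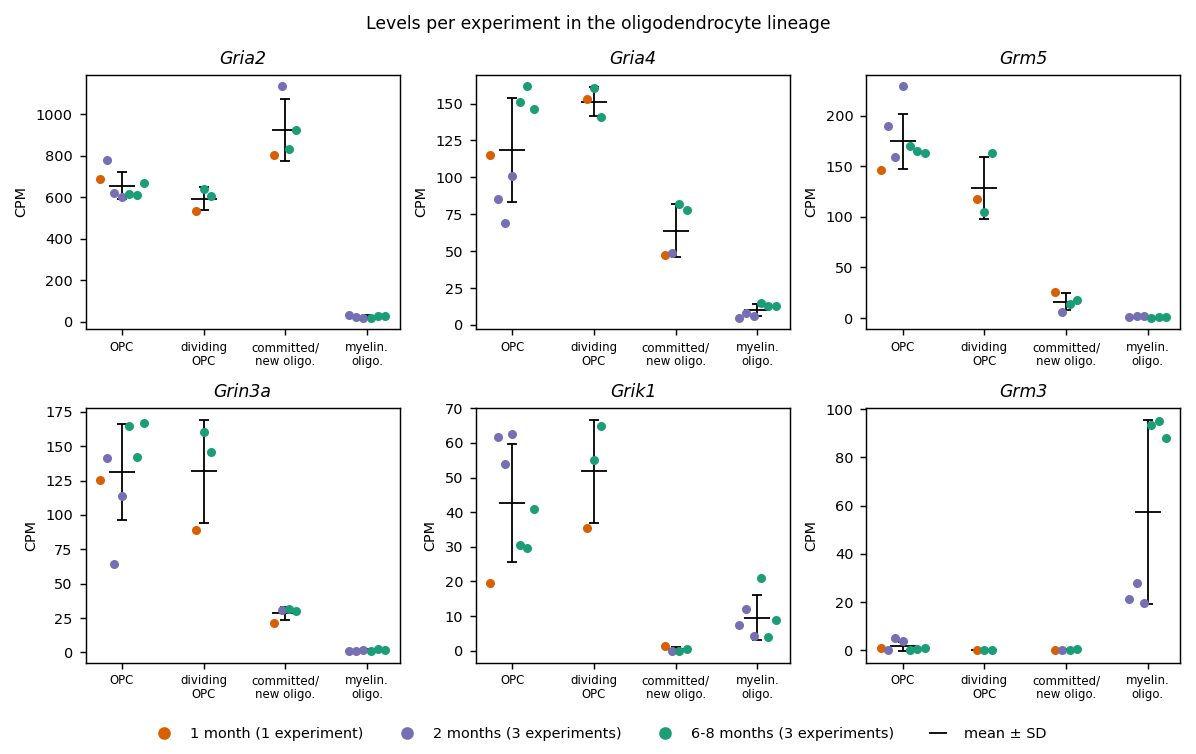
Level (CPM, linear axes) of Gria2, Gria4, Grm5, Grin3a, Grik1 and Grm3 in OPCs, dividing OPCs, committed and newly formed oligodendrocytes and myelinating oligodendrocytes; points are experiments and bars the mean ± SD. Gria2 is highest in committed cells (924 CPM) and falls to 24.5 CPM in myelinating cells, where Grm3 reaches 57.6 CPM.

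Between 6–8 months and 1 month, with 1 experiment at the younger age, 2 of the 16 members tested in quiescent NSCs were called, where 0.924% of all genes were. Gria2 was 460.3 CPM at 1 month and 989, 835 and 1084 CPM at 6–8 months (log2 difference 0.98 ± 0.27 (SE), edgeR adjusted p = 0.044). Gria1 was 40.7 CPM at 1 month and 96.6, 86.8 and 117 CPM at 6–8 months (log2 difference 1.22 ± 0.30 (SE), edgeR adjusted p = 0.020). The lone 1-month sum was assumed to vary like the others, and DESeq2 called 0 members. With 1 experiment left out, the edgeR adjusted p was above 0.05 for Gria1 (0.24 without 6mo-3) and Gria2 (0.051 to 0.11 without 2mo-3, 6mo-1, 6mo-2 or 6mo-3). Only 1 member was called without 2mo-3, 6mo-1 or 6mo-2, and 0 without 6mo-3. In OPCs 0 of 31 members were called by edgeR (9 at an unadjusted p under 0.05; DESeq2 0), where 0.236% of all genes were. In early and late neuroblasts summed, 0 of 23 were called (6 unadjusted; DESeq2 0), where 0.00994% of all genes were, and 2 within Version 3, 2 without 2mo-1 and 1 without 2mo-2. In myelinating oligodendrocytes the ages were not compared, because the 1-month experiment had 14 such cells.

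Genes that work with these receptors were followed in 6 lists, of which 81 genes were tested. Values in parentheses after these genes are log2 differences ± SE from edgeR, or UMIs where a group had 3 or fewer. Counts per list are descriptions, to be read against the share of all genes called in the same comparison. In cycling NSCs against quiescent NSCs, 10 of 17 tested genes of glutamate and GABA synthesis and uptake were lower and 1 higher, 8 of 14 GABA receptor partners were lower, 7 of 21 glutamatergic scaffold genes were lower, 5 of 16 auxiliary subunits of AMPA and kainate receptors were lower and 2 higher, 2 of 9 chloride transport genes were lower, and of 4 glycine receptor and coagonist genes 1 was lower and 1 higher. List medians of the log2 difference ran from −1.77 (synthesis and uptake) to −0.11 (auxiliary subunits), against −0.30 for all genes (32.8% called). Named by size, the falls were Abat, which degrades GABA (−3.30 ± 0.38), Porcn, an acyltransferase also found with AMPA receptors (−3.22 ± 0.48), the scaffold gene Dlg2 (1 against 80 UMIs, a ratio of 0.0695 with an interval of 0.00174 to 0.398) and Kctd12, a GABAB partner (2 against 81 UMIs, a ratio of 0.137 with an interval of 0.0163 to 0.512). The rises were Cnih2, an AMPA auxiliary subunit (2.59 ± 0.28), Neto2, a kainate auxiliary subunit (1.80 ± 0.45), the amino acid transporter Slc1a5 (2.72 ± 0.84) and Shmt2, which makes glycine (1.08 ± 0.26). The edgeR adjusted p was above 0.05 with 1 experiment left out for Kctd12 (0.16 without 1mo-1) and Slc1a5 (0.15 without 6mo-3). Differences that moved by over 1.5 times included −4.39 for Porcn without 1mo-1 and 1.99 for Slc1a5 without 6mo-3.

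From cycling NSC to cycling IPC the synthesis and uptake genes had 2 rises and 4 falls, led by Slc17a6, the vesicular glutamate transporter of young neurons (175 against 1 UMIs, a ratio of 30.1 with an interval of 5.34 to 1197), and by the glial transporters Slc6a11 (−1.94 ± 0.39), Slc1a2 (−1.33 ± 0.17) and Slc1a3 (−1.19 ± 0.16). GABA receptor partners had 3 rises, scaffold genes 2 rises and 1 fall, and the glycine list 1 rise. The lists' median log2 difference ran from −0.32 (glycine genes) to 0.55 (GABA receptor partners), against 0.12 for all genes (10.7% called). Dlgap3 (1.99 ± 0.57) and Dlgap4 (0.83 ± 0.25), both scaffold genes, and Plcl1, a GABAA partner (1.10 ± 0.36), rose, and Camk2d, a kinase subunit, fell (−2.03 ± 0.55). Leaving out 1 experiment took the edgeR adjusted p above 0.05 for Camk2d (0.22 without 6mo-3), Dlgap3 (0.051 to 0.22 without 1mo-1, 2mo-1 or 6mo-3), Dlgap4 (0.057 to 0.67 without 1mo-1, 2mo-1 or 6mo-1) and Plcl1 (0.090 to 0.50 without 1mo-1, 2mo-1 or 6mo-2). Without 1 experiment, the log2 difference was −2.88 for Camk2d without 1mo-1, 2.59 for Dlgap3 without 2mo-2 and 2.00 for Plcl1 without 6mo-3. In non-cycling against cycling IPCs, 4 auxiliary subunits rose and 2 fell, and 4 scaffold genes rose and 1 fell. There 3 GABA receptor partners, 2 chloride transport genes and 1 synthesis or uptake gene rose, and 1 glycine gene fell. List medians of the log2 difference ran from −0.51 (glycine genes) to 0.20 (GABA receptor partners), against 0.00 for all genes (22.2% called). Camk2b (2.81 ± 0.60), Porcn (2.01 ± 0.29), Cacng2 (1.70 ± 0.49) and Cnih3 (1.52 ± 0.35) led the rises, and Cacng5 (−1.38 ± 0.45), Homer2 (−1.14 ± 0.33), Neto2 (−1.04 ± 0.29) and Shmt2 (−0.74 ± 0.17) the falls. Calls lost when 1 experiment was left out (edgeR adjusted p above 0.05) included Cacng5 (0.075 without 1mo-1).

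In early neuroblasts against non-cycling IPCs there were 2 rises each among auxiliary subunits and scaffold genes, 1 each among GABA receptor partners, chloride transport and glycine genes, and 1 rise and 1 fall in synthesis and uptake. The lists' median log2 difference ran from 0.10 (GABA receptor partners) to 0.90 (auxiliary subunits), against −0.08 for all genes (3.72% called). Camk2b, a synaptic kinase subunit (3.50 ± 0.37), and Glrb, the glycine receptor beta subunit (1.56 ± 0.43), rose, as did the AMPA auxiliary gene Gsg1l (9 against 0 UMIs, at least 12.7-fold higher) and Dlg2 (6 against 1 UMIs, a ratio of 25.4 with an interval of 3.08 to 1167), and Slc1a3 fell (−0.87 ± 0.21). With 1 experiment left out, the edgeR adjusted p was above 0.05 for Dlg2 (0.051 to 0.18 without 2mo-1 or 2mo-3), Glrb (0.053 to 0.68 without 1mo-1, 2mo-1 or 2mo-2) and Slc1a3 (0.075 without 2mo-1). The log2 difference became 0.75 for Glrb without 2mo-2. Between late and early neuroblasts 0 of 81 were called by edgeR (9 at an unadjusted p under 0.05, and DESeq2 0), where 0.0471% of all genes were. Against quiescent NSCs, late neuroblasts had 9 auxiliary subunits higher and 4 lower, 10 scaffold genes higher and 4 lower, 4 GABA receptor partners higher and 5 lower, 2 chloride transport genes higher and 4 lower, 6 synthesis and uptake genes higher and 10 lower, and 1 glycine gene higher and 2 lower. List medians of the log2 difference ran from −2.02 (synthesis and uptake) to 1.48 (auxiliary subunits), against −0.08 for all genes (57.4% called). Cnih2 (5.21 ± 0.19) and Camk2b (3.82 ± 0.24) rose, as did Slc17a6 (125 against 0 UMIs, at least 58.7-fold higher) and Cacng2, an AMPA auxiliary subunit (132 against 2 UMIs, a ratio of 93.0 with an interval of 25.2 to 776). The glial GABA transporter Slc6a11 (−5.10 ± 0.28) and Camk2d (−4.89 ± 0.34) fell, as did the glycine transporter Slc6a9 (3 against 232 UMIs, a ratio of 0.0182 with an interval of 0.00373 to 0.0539) and Cacng5 (2 against 116 UMIs, a ratio of 0.0243 with an interval of 0.00291 to 0.0897). Without 1 experiment, the log2 difference was −4.27 for Camk2d without 1mo-1 and −5.73 for Slc6a11 without 1mo-1.

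In astrocytes, 8 of 17 synthesis and uptake genes were higher than in quiescent NSCs and 2 lower, 3 auxiliary subunits, 3 scaffold genes and 3 GABA receptor partners were higher with 1 lower in each, and 1 chloride transport and 1 glycine gene were higher. The lists' median log2 difference ran from −0.00 (chloride transport) to 0.80 (synthesis and uptake), against −0.02 for all genes (23.3% called). Glrb (2.96 ± 0.24), Slc38a3, a glutamine transporter (2.66 ± 0.19), and the AMPA auxiliary genes Shisa9 (2.89 ± 0.68) and Shisa6 (14 against 2 UMIs, a ratio of 9.62 with an interval of 2.21 to 87.2) led the rises. Cacng5 (−2.44 ± 0.38), Homer2, a scaffold for Grm5 (−1.75 ± 0.28), and the glutamine transporters Slc38a1 (−1.58 ± 0.16) and Slc38a2 (−1.26 ± 0.16) led the falls. Calls lost when 1 experiment was left out (edgeR adjusted p above 0.05) included Shisa6 (0.17 without 2mo-1) and Shisa9 (0.34 without 2mo-1). Values that moved by over 1.5 times included log2 differences of 1.34 for Shisa9 without 2mo-1.

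OPCs had 10 auxiliary subunits higher than quiescent NSCs and 3 lower, 12 scaffold genes higher and 5 lower, 7 GABA receptor partners higher and 5 lower, 3 chloride transport genes higher and 2 lower, 5 synthesis and uptake genes higher and 9 lower, and 1 glycine gene higher and 2 lower. List medians of the log2 difference ran from −0.73 (synthesis and uptake) to 1.75 (auxiliary subunits), against 0.06 for all genes (51.9% called). Neto1, the partner of kainate receptors, had 1212 against 3 UMIs, a ratio of 126 with an interval of 43.2 to 614, and Shisa7 (6.32 ± 0.36), Cacng4 (6.18 ± 0.23) and Shisa9 (5.98 ± 0.41), which bind AMPA or GABAA receptors, were higher. The glial genes Slc1a3 (−4.21 ± 0.15), Glul, glutamine synthetase (−3.20 ± 0.17), Slc1a2 (−3.11 ± 0.13) and Slc6a11 (−2.97 ± 0.19) were lower. In dividing OPCs against OPCs Cnih2 was higher (0.71 ± 0.19) and Dlgap4 (−1.15 ± 0.24), Porcn (−1.10 ± 0.29) and Gabarapl1, a GABAA trafficking gene (−0.75 ± 0.19), were lower, with no other gene of the lists called. For dividing OPCs against OPCs, the lists' median log2 difference ran from −0.39 (synthesis and uptake) to −0.08 (GABA receptor partners), against −0.20 for all genes (9.08% called). With 1 experiment left out, the edgeR adjusted p was above 0.05 for Cnih2 (0.25 without 6mo-3), Gabarapl1 (0.076 without 1mo-1) and Porcn (0.077 to 0.12 without 1mo-1 or 6mo-3).

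In committed cells 9 auxiliary subunits were lower than in OPCs and 1 higher, 13 scaffold genes lower and 4 higher, 5 GABA receptor partners lower and 4 higher, 3 chloride transport genes lower and 1 higher, 11 synthesis and uptake genes lower and 3 higher, and 1 glycine gene higher. List medians of the log2 difference ran from −1.72 (auxiliary subunits) to 0.19 (glycine genes), against −0.23 for all genes (40.9% called). Slc1a2 (−4.43 ± 0.25) and Gad1, which makes GABA (−4.37 ± 0.52), fell, as did the AMPA auxiliary gene Cacng8 (2 against 647 UMIs, a ratio of 0.0211 with an interval of 0.00255 to 0.0764) and the scaffold gene Grip1 (1 against 190 UMIs, a ratio of 0.0359 with an interval of 0.000904 to 0.202). Glrb (2.27 ± 0.15), Plcl1 (2.13 ± 0.19), Homer2 (1.89 ± 0.22) and the glutamate transporter Slc1a1 (1.56 ± 0.14) rose. Differences that moved by over 1.5 times included −3.31 for Gad1 without 6mo-3. From there to myelinating cells, 7 auxiliary subunits were lower and 1 higher, 8 scaffold genes lower and 5 higher, 5 GABA receptor partners lower and 5 higher, 1 chloride transport gene lower and 6 higher, 6 synthesis and uptake genes lower and 5 higher, and 1 glycine gene each way. The lists' median log2 difference ran from −0.72 (scaffold genes) to 1.05 (chloride transport), against 0.16 for all genes (48.2% called). Slc1a1 (−7.79 ± 0.23), Shisa9 (−6.43 ± 0.42), Homer2 (−6.36 ± 0.33) and Cacng4 (−5.26 ± 0.27) fell, and Glul (6.41 ± 0.26), Slc1a3 (3.10 ± 0.29), Slc6a9 (3.03 ± 0.23) and Cnih3 (101 against 1 UMIs, a ratio of 11.6 with an interval of 2.04 to 463) rose. Leaving out 1 experiment took the edgeR adjusted p above 0.05 for Cnih3 (0.058 without 6mo-3).

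In the added test between lineages, 1 auxiliary subunit lay above and 4 below, 2 each of the scaffold, GABA receptor partner and chloride transport genes lay below, 7 synthesis and uptake genes lay below, and 1 glycine gene lay each way. Of all genes, 10.3% were called in that test. Shmt2 (1.90 ± 0.47) and Cnih2 (1.87 ± 0.34) lay above, and Cacng5 (−3.01 ± 1.02), Abat (−2.63 ± 0.54), the chloride channel gene Clcn2 (−2.58 ± 0.64) and Glul (−2.28 ± 0.39) lay furthest below. With 1 experiment left out, the edgeR adjusted p was above 0.05 for Cacng5 (0.057 to 0.83 without 1mo-1, 2mo-2, 2mo-3, 6mo-2 or 6mo-3), Clcn2 (0.090 to 0.096 without 1mo-1 or 6mo-3) and Shmt2 (0.17 without 6mo-3). With age, 3 synthesis and uptake genes and 1 glycine gene were called in quiescent NSCs, namely Slc38a3 (2.06 ± 0.41), Slc6a9 (1.24 ± 0.33), Slc6a11 (1.01 ± 0.27) and Glul (0.99 ± 0.26) (DESeq2 0 of 60); the 1-month group was 1 sum, so the SE takes its spread from the other ages. In OPCs 0 of 75 tested genes of the lists were called by edgeR (5 at an unadjusted p under 0.05, and DESeq2 0), and in neuroblasts 0 of 67 (6 unadjusted, and DESeq2 0). The edgeR adjusted p was above 0.05 with 1 experiment left out for Glul (0.066 to 0.20 without 2mo-3 or 6mo-2), Slc6a11 (0.056 to 0.16 without 2mo-3, 6mo-1 or 6mo-3) and Slc6a9 (0.063 to 0.33 without 2mo-3, 6mo-1 or 6mo-3).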

How the data were processed

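Single-cell RNA was measured by droplet sequencing in 8 libraries. Per the submitters' processing notes the authors trimmed reads with cutadapt 1.18, aligned them with Cell Ranger 3.0.2 to a customised mm10-3.0.0 reference and aggregated libraries without depth normalisation; Seurat is also named. The deposited values are raw UMI counts per gene and cell, and no column was without a sample.

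Members and gene lists were chosen with earlier results of these data known. A barcode was kept if it had more than 500 genes detected and less than 10% of its UMIs from mitochondrial genes (24376 of 26036), with a median of 2061 to 7768.5 UMIs per cell by library. Cell types were gated with 17 lists of 129 markers. Cells that passed gates of 2 lineages stayed unassigned (5889 with those passing none), no doublet caller was run, and 59 barcode sequences occurred in more than 1 library.

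Counts were summed by experiment and cell type (62 sums of at least 20 cells). Genes with at least 30 UMIs over all sums (14867) were fitted with edgeR 4.0.16 (R 4.3.3, limma 3.58.1), with TMM scaling, quasi-likelihood tests, the experiment as a block and Benjamini-Hochberg adjustment over all genes (called at 0.05). The block rests on the design, since cell types of 1 experiment came from the same pooled animals. DESeq2 1.42.0 was an alternative. Other steps used the R package data.table (version 1.17.8), Python 3.11.15, numpy 2.4.6, pandas 2.3.3, scipy 1.17.1 and matplotlib 3.10.9. Scaling to total UMIs moved the median log2 difference of all genes by over 0.1 in several comparisons, such as OPC against quiescent NSC (0.06 to 0.37), cycling against quiescent NSC (−0.30 to −0.08) and myelinating against committed oligodendrocyte (0.16 to −0.41). Some members are counted but not reported by name here. The others that were called are named in order of the size of the log2 difference, at most 20 by rule per comparison, with the rest added afterwards, and from the lists the 4 with the largest called difference each way. Simulated data with 200 changed genes gave 97.5% recovery and 2.99% false calls for OPC against quiescent NSC (14863 genes), 59.5% and 1.65% for cycling against quiescent NSC (14865 genes), and 88.5% and 1.67% for committed oligodendrocyte against OPC (14858 genes). The changed genes all had many UMIs and a fixed, large change. Dispersion was fixed, and no differences between experiments were simulated. These rates therefore do not carry over to members with few UMIs or to the real spread.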

Additional observations from a re-analysis of the deposited data

Results flagged for a closer look

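In 12 of 111 receptor gene levels tested, 1 experiment stood apart from the others of its cell type (Dixon's test, 4 to 7 experiments), where chance gives about 1 in 20. In OPCs these were Gabra3 in 1mo-1 (13.0 CPM, others 19.1 to 23.4), Grik3 in 6mo-1 (45.9 CPM, others 16.8 to 29.2) and Grin2d in 6mo-3 (15.5 CPM, others 3.91 to 7.85). In committed oligodendrocytes 1mo-1 was low for Grin3a (21.7 CPM, others 30.3 to 31.5) and Gabbr1 (95.4 CPM, others 110.4 to 112). In non-cycling IPCs 6mo-3 was high for Grin2b (107 CPM, others 42.9 to 60.3) and Gabbr1 (145 CPM, others 68.6 to 91.8). Gabra2 stood apart in quiescent NSCs of 2mo-3 (17.3 CPM, others 7.14 to 11.4) and in late neuroblasts of 1mo-1 (84.2 CPM, others 121 to 141). The last 3 were Gabra4 in astrocytes of 2mo-2 (80.7 CPM, others 39.6 to 55.9), Gabra5 in late neuroblasts of 2mo-1 (31.6 CPM, others 0 to 12.9) and Grik4 in myelinating oligodendrocytes of 6mo-3 (8.75 CPM, others 2.24 to 3.83).

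The cycling difference differed between the NSC and OPC lineages for Gabrb1 (log2 difference −2.30), Gabbr1 (−1.34) and Gria2 (−1.20). The calls came from edgeR's test of the difference itself, which was added after the other results were seen. Of all genes, 10.3% were called in this test, near the share of members given above. Errors and adjusted p-values are given above. The calls of Gabbr1 and Gabrb1 were lost when a single experiment, named above, was left out (edgeR adjusted p = 0.077 and 0.10). Stricter gates called fewer members in this test, as given below.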

How the results depend on the processing

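Of 154 differences called with edgeR for the members reported by name, 6 changed direction under an alternative, each without being called. Within Version 2 these were Grin1 (log2 difference 1.63), Gabrg1 (3.00), Grin2d (0.76) and Gabrg3 (2.94) from committed to myelinating oligodendrocytes, where 1 sum of committed cells remained, and Grin2a in OPCs against quiescent NSCs (0.60). Within Version 3 it was Gria3 in early neuroblasts against non-cycling IPCs (−3.32). The cause was not tested. With total UMIs in place of TMM, 3 of these calls were lost (Gria2 in OPCs against quiescent NSCs, Grid1 in late neuroblasts and Grik5 in astrocytes), and the age comparison in neuroblasts called 0 genes. DESeq2 lost 21 of them.

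The counts below are genes or members called. The experiment was the block, and without the replicate block cycling IPC against cycling NSC called 839 genes and 3 members, early neuroblast against IPC 272 and 6, late against early neuroblast 1 gene, astrocyte against quiescent NSC 2129 genes, dividing OPC against OPC 738 and 1, and the test between lineages 724 genes; 22 calls of single members were lost. With DESeq2, late against early neuroblast called 46 genes, and the age comparison 10 genes and 0 members in quiescent NSCs and 8 genes in OPCs. With no filter on low counts these were 52 genes, 1 member and 73 genes, and the neuroblast ages gave 100 genes and 1 member. With only the compared cell types fitted, early neuroblast against IPC called 6 members, late against early neuroblast 11 genes, and dividing OPC against OPC 4 members.

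Stricter gates gave 2661 genes and 7 members for cycling against quiescent NSC, 733 and 2 for cycling IPC against cycling NSC, 176 and 2 for early neuroblast against IPC, and 541 and 1 for the test between lineages, and the Grin2b share difference of late neuroblasts against quiescent NSCs turned from −3.14 to 0.832 percentage points. Version 2 alone gave 2089 genes and 4 members for cycling against quiescent NSC, 369 and 0 for cycling IPC against cycling NSC, 1888 and 7 for non-cycling against cycling IPC, 5145 genes for late neuroblast and 2265 for astrocyte against quiescent NSC, 1127 and 8 for committed cell against OPC, 1950 and 7 for myelinating against committed cell, and 3896 genes for OPC against quiescent NSC. Version 3 alone gave 7 members for non-cycling against cycling IPC, 245 genes and 3 members for early neuroblast against IPC, 120 and 1 for late against early neuroblast, 75 genes for age in OPCs, and 101 and 2 for age in neuroblasts.

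Keeping only genes with a UMI in 20% of cells of either type tested fewer genes. It called 3039 genes and 4 members for cycling against quiescent NSC, 3 members for cycling IPC against cycling NSC, 2141 and 4 for non-cycling against cycling IPC, 2 members for early neuroblast against IPC, 3330 and 5 for late neuroblast, 1606 and 4 for astrocyte and 3147 and 13 for OPC against quiescent NSC, 3433 and 10 for committed cell against OPC, and 4170 and 9 for myelinating against committed cell.

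Leaving out 1 experiment at a time, cycling IPC against cycling NSC called 740 to 1578 genes and 2 to 7 members, non-cycling against cycling IPC 7 to 13 members, early neuroblast against IPC 190 to 574 genes and 3 to 10 members, late against early neuroblast 4 to 9 genes, dividing OPC against OPC 710 to 1432 genes and 1 to 2 members, and the test between lineages 660 to 1526 genes and 1 to 4 members. The age comparison called 42 to 158 genes and 0 to 2 members in quiescent NSCs, 6 to 74 genes in OPCs, and 0 to 100 genes and 0 to 2 members in neuroblasts. Sums of few UMIs limit cycling NSCs, early neuroblasts, dividing OPCs and the single 1-month experiment.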

Other observations

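Cells outside the compared lineages held few receptor UMIs, with exceptions. In mural cells, the pericytes and smooth muscle of vessels, Grm3 was 61.3 ± 32.7 CPM, Grm7 31.0 ± 22.9 CPM and Grin2a 8.21 ± 8.24 CPM (SD, n = 7). Gabbr1 was 54.0 CPM on average in mural cells, 33.0 CPM in endothelial cells and 46.8 CPM in microglia.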
